A study of Mus musculus with 386 samples.

Results

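A set of 10 carboxylesterase genes was followed across tissues, strains and crosses: Ces1c, Ces1d, Ces1e, Ces1f, Ces1g, Ces2a, Ces2e, Ces3a, Ces3b and Ces4a. They are the genes named for this description that have an array cluster with a single gene symbol, and they make up 10 of the 18820 genes with such a cluster. Each has 1 such cluster, so no choice between clusters arose. The gene table listed 20 carboxylesterase genes, of which 16 had a single-symbol cluster. RNA from brain, kidney, liver and lung was hybridised to Affymetrix Mouse Gene 1.1 ST arrays, which give 1 log2 signal per transcript cluster. The mice were F1 animals of the crosses CASTxPWK, PWKxCAST, CASTxWSB, WSBxCAST, PWKxWSB and WSBxPWK, named with the dam first, and inbred animals of CAST, PWK and WSB. All were 23 days old, of both sexes, and bred in 1 colony from mice few generations away from Jackson Laboratory founders. The inbred strains are wild-derived and represent the subspecies castaneus (CAST), musculus (PWK) and domesticus (WSB), so each F1 animal carries 1 chromosome set from each of its parental strains. The arrays came from 111 animals, with 6 to 13 arrays per cross and tissue. Within a cross and tissue each array is a separate animal per the labels, and 67 animals gave arrays of all 4 tissues.

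Carboxylesterases are serine hydrolases of the endoplasmic reticulum that cleave ester and amide bonds in drugs, pesticides and lipids. Liver is the organ best known for them, where they activate or clear ester drugs and take part in the turnover of stored triglyceride, and some are secreted into plasma. The mouse family arose by repeated local duplication, so neighbouring genes are similar in sequence and array probes may not fully separate them. Levels of different genes were therefore not set against each other, and a difference seen for one gene may include signal from a close relative.

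The 10 genes lie on chromosome 8 in the gene table of assembly GRCm38.p6. Ces1c, Ces1d, Ces1e, Ces1f and Ces1g stand between positions 93099015 and 93337209. Ces2a, Ces2e, Ces3a, Ces3b and Ces4a stand between 104734003 and 105150109. Promoter windows of 300 bases, from 250 before to 50 after the annotated start, were in the RefSeq promoter table for 7 of the genes and not for Ces1d, Ces1f or Ces3a. They come from the C57BL/6J reference, not from CAST, PWK or WSB. The Ces4a window, chr8:105131550-105131849 on the plus strand, is shown because Ces4a had the widest spread between crosses in liver. Its capitals mark the match to AGGTCA, the hexamer of many nuclear receptor sites, read on the minus strand, with its leftmost base at position -29 from the start.

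Ces4a: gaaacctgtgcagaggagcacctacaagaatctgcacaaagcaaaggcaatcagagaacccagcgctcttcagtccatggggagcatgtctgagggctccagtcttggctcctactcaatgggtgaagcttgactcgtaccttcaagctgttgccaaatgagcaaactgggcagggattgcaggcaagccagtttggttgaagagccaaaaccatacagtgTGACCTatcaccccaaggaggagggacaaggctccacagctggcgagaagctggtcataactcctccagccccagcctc

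The windows of Ces2a, chr8:104733753-104734052, and Ces2e, chr8:104926010-104926309, both on the plus strand, are shown because both genes were low in PWK liver and theirs was the pair with the longest shared sequence. Of 21 pairs of windows, this pair shared 3 runs of 10 or more bases in the same order, of 17, 12 and 11 bases, which are in capitals. The 17-base run begins at position -205 from the start in Ces2a and -183 in Ces2e.

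Ces2a: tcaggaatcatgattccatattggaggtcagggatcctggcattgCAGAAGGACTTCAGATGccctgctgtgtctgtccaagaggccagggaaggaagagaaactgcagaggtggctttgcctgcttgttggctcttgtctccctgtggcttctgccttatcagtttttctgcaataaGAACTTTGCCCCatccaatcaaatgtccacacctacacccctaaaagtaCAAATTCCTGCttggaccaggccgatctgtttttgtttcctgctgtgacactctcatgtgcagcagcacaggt

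Ces2e: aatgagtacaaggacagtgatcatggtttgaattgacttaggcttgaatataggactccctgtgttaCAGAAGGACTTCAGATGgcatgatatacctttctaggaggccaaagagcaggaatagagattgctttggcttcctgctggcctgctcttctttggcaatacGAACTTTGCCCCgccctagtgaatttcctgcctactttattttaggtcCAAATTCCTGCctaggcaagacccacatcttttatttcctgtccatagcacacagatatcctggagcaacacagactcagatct

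Both strands of the 7 windows were searched for 4 motifs. These were the TATA box as TATAAA, the nuclear receptor hexamer as AGGTCA, part of the site of the liver factor HNF1 as GTTAAT, and a site of the liver factor HNF4 as CAAAGTCCA. The hexamer was found in Ces4a and Ces2a, and stands in 16.3% of all 32841 windows of the table. The TATA box was found in Ces1g and Ces3b and stands in 13.6% of all windows. The HNF1 letters were found in Ces3b and stand in 7.1% of all windows, and the HNF4 letters were found in none of the 7 and in 0.475% of all windows. A match describes the reference letters only.

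The dissected organs carried their own markers. The signal was highest in liver for 8 of 8 hepatocyte genes, in kidney for 8 of 8 proximal tubule genes, in lung for 6 of 6 alveolar epithelium genes and in brain for 5 of 5 neuron genes. On 2 arrays the X- and Y-linked signals went against the sex label, a brain array of PWKxCAST (replicate 9) and a liver array of PWKxWSB (replicate 8). Both were kept as labelled. Without that liver array 65 called values of the members kept their call and 1 lost it, Ces1f against mid-parent in the F1 of PWK and WSB (0.11, adjusted p = 0.0724, against 0.12, adjusted p = 0.0419, with it). In lung 1 CAST array, replicate 2, stood apart from its group for Ces1c (10.38, next 7.59) and Ces3a (9.59, next 7.27). Groups of more than 10 arrays were not examined for this. A gene was tested in a tissue where its mean signal reached the 40th percentile of that tissue, a level of 5.96 in liver, 6.27 in kidney, 6.37 in lung and 6.37 in brain. The mean runs over all arrays of the tissue, so single groups of a gene that passed can lie below that level. All 10 genes passed in liver, Ces1d, Ces1e, Ces1f and Ces2e in kidney, and Ces1c, Ces1d, Ces1e, Ces1f, Ces1g, Ces2e and Ces3a in lung. No member passed in brain, so no member was tested between crosses there. A call means an adjusted p under 0.05 in limma with Benjamini-Hochberg adjustment over the 11292 genes tested per tissue, and the spread quoted with a difference is its standard error. Because each array holds tissue RNA, fewer cells of a type and less RNA per cell cannot be told apart. Strain variants in probe sequences were not examined, so probe binding and transcript amount cannot be told apart in a strain difference.

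The carboxylesterases were liver genes with exceptions. In liver against the mean of kidney, lung and brain, 9 of the 10 were higher by at least 3 on the log2 scale, a size reached by 3.63% of the 13774 genes tested across tissues. Ces1c, the plasma esterase that liver secretes, had 12.36, 12.99 and 13.30 (lowest, median and highest of 101 liver arrays), against a highest array of 11.34 in lung. The liver excess was 7.14 ± 0.10 for Ces1c, 7.11 ± 0.06 for Ces3b and 7.04 ± 0.09 for Ces3a, both of the last being enzymes described in mouse liver. The signals of Ces1c, Ces1g, Ces2a, Ces3a and Ces3b in liver did not overlap with those of any other tissue. The share of all genes without such overlap is not given here.

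Ces1d, the triacylglycerol hydrolase of the endoplasmic reticulum, was the exception. Its signal was 12.22 ± 0.23 in liver (SD, n = 101), 12.41 ± 0.11 in lung (n = 98), 11.48 ± 0.31 in kidney (n = 102) and 4.95 ± 0.56 in brain (n = 85), so the arrays of lung, liver and kidney overlapped and only brain stood apart from its neighbour in that order. Against the mean of the other tissues, brain included, Ces1d was higher by 1.62 ± 0.03 in kidney and by 2.87 ± 0.03 in lung. Its kidney mean was nevertheless below those of liver and lung. Ces1e, known as egasyn because it holds beta-glucuronidase in the endoplasmic reticulum, was higher in kidney by 1.41 ± 0.03 in that comparison. For Ces1f, a further hydrolase of stored triglyceride, the kidney value was 1.14 ± 0.05. Their kidney means of 8.41 and 8.73 were below their liver means of 10.31 and 11.66. Ces1g, a liver esterase linked to lipid handling in mice, was higher in lung by 0.77 ± 0.04 in that comparison. Its means were 8.05 in lung and 11.65 in liver. In brain each member was below the mean of the other tissues, from -7.10 ± 0.03 for Ces1d to -1.06 ± 0.04 for Ces4a. For Ces4a the brain mean of 4.48 was not below the lung mean of 4.45. The share of all genes lower in brain is not given here. Ces2e, an enzyme of the Ces2 class, differed in kidney from the mean of the other tissues by a small amount, -0.10 ± 0.03. Its lung difference of 0.05 ± 0.03 did not pass (limma, adjusted p = 0.0755). The Ces2e means were 10.33 in liver, 7.38 in lung, 7.31 in kidney and 4.52 in brain.

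**Figure D1:**
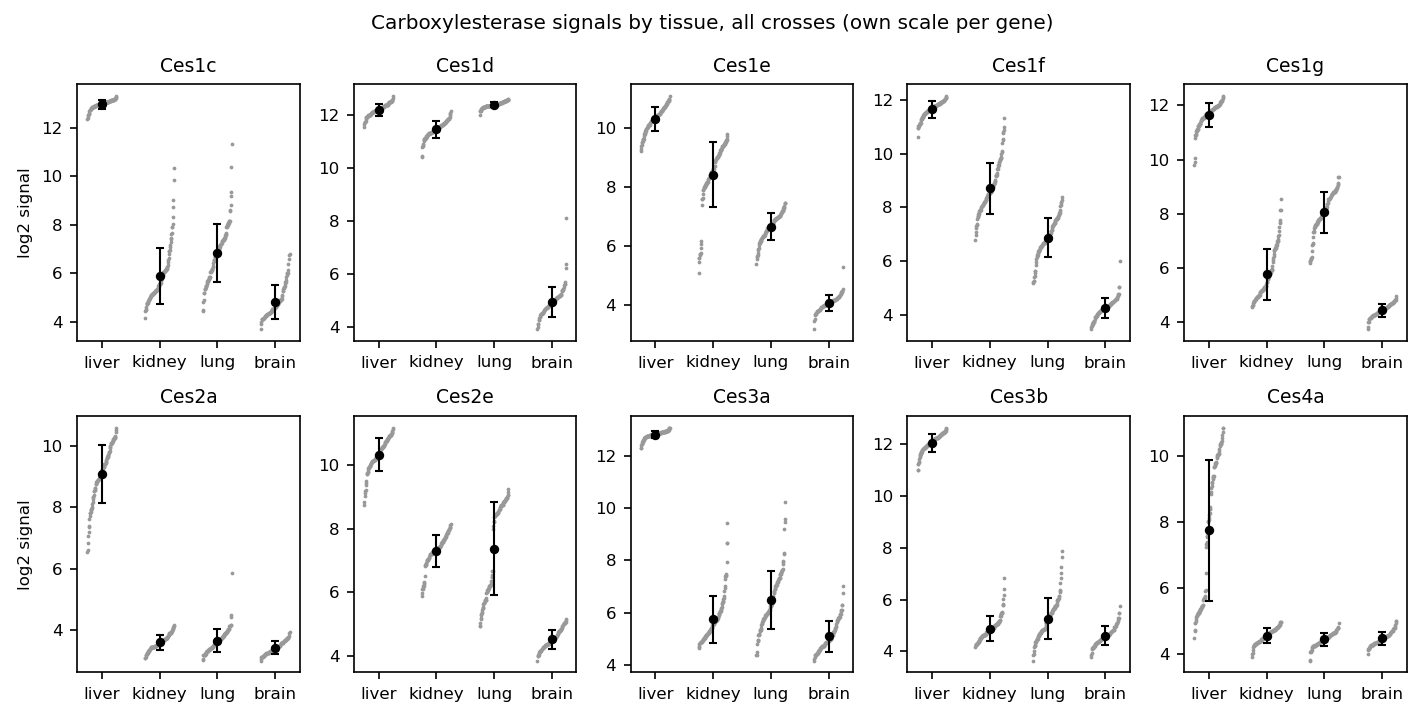
Log2 signal of each carboxylesterase on every array of liver, kidney, lung and brain (grey points, sorted within a tissue), with mean and SD in black; each panel has its own scale. Liver stood above the other tissues for most genes, Ces1d was as high in lung, and Ces4a had the widest liver range, 4.50 to 10.86.

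Ces4a, a member of which less is known, was the most variable of the 10 in liver, with 4.50, 8.06 and 10.86 as its lowest, median and highest signals. Its kidney, brain and lung signals all lay between 3.80 and 5.01, below the level needed for a test in those tissues. Ces2a, a Ces2-class hydrolase of intestine and liver, likewise had medians of 3.59 in kidney, 3.64 in lung and 3.40 in brain, and no cross of those tissues was tested.

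On arrays of other tissues, Ces1c, Ces3a and Ces3b followed hepatocyte markers most closely. The summed signal of 8 hepatocyte genes ranged from 10.10 to 15.24 in lung and from 11.47 to 14.82 in kidney, against 16.12 to 16.40 in liver. Within cross and sex, the deviations of Ces1c followed this sum in lung with r = 0.972 and rho = 0.978 (n = 98), and in kidney with r = 0.928 and rho = 0.879 (n = 102). Ces3a followed it with r = 0.961 in lung and 0.899 in kidney, and Ces3b with r = 0.899 in lung and 0.725 in kidney. Each of these had a permutation p of 1e-05, the smallest that 100000 permutations within cross and sex can give, and an adjusted p of 5.56e-05 over 50 relations. Without the 2 arrays farthest from the median sum, and within runs of animal numbers, the r of Ces1c in lung was 0.971 and 0.970. In lung 2 other members passed by both measures, Ces1f with r = 0.619 (rho = 0.520, adjusted permutation p = 5.56e-05 for each) and Ces2a with r = 0.417 (rho = 0.353, adjusted permutation p = 9.00e-04 and 0.00491). Ces1g in lung passed by Pearson's r alone (r = 0.360, adjusted permutation p = 0.0178) and not by Spearman's (rho = 0.263, adjusted permutation p = 0.0669). In brain Ces1c (r = 0.638), Ces3a (r = 0.584) and Ces3b (r = 0.353) passed as well. There 5 of the 8 hepatocyte genes and all members had means below the level filter, so the brain sum may not follow hepatocytes. The relations of Ces2e, with r = 0.214 in lung and -0.167 in kidney, did not pass the adjustment. Against a fat marker sum, Ces1c (r = 0.292) and Ces3a (r = 0.303) passed in kidney, and Ces1f passed in lung by Spearman's rho alone (0.304). Signals of the members that passed therefore stand beside a varying hepatocyte marker sum, and the part of hepatocyte RNA in them was not tested. With the hepatocyte sum as a covariate, 53 of 53 called differences of the members in kidney and lung that could be recomputed kept their direction and their call. The kidney calls are those of Ces1d, Ces1e, Ces1f and Ces2e, whose relations to the sum did not pass there. Ces1c and Ces3a were not tested between crosses in kidney, nor Ces3b in kidney or lung. The lung calls do include Ces1f between inbred strains and Ces3a above mid-parent for CAST and WSB, genes that followed the sum there. A kept call does not measure hepatocyte signal. The count therefore cannot decide what part that signal has in the members that followed the sum.

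Between inbred strains the family differed widely in liver. Of the 30 contrasts of the 10 members, 27 were called, 11 higher and 16 lower in the first-named strain, where 54.1% of such contrasts were called over all genes. Ces4a was low in CAST and PWK and high in WSB. CAST livers had 4.71, 5.24 and 5.70 (n = 11), PWK livers 5.19, 5.67 and 6.47 (n = 9), and WSB livers 7.33, 8.22 and 10.54 (n = 13). The CAST and PWK ranges overlapped each other and neither touched that of WSB. The difference in Ces4a signal was -3.34 ± 0.20 for CAST minus WSB (adjusted p = 4.40e-27) and -2.90 ± 0.21 for PWK minus WSB (adjusted p = 1.06e-21). Every CAST liver and the PWK mean lay below the liver filter, which Ces4a passed through the crosses with a WSB parent, so no fold is given. CAST and PWK differed by -0.44 ± 0.22, which did not pass (adjusted p = 0.0893).

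Ces2a and Ces2e were lowest in PWK among inbred livers. Ces2a had 8.91, 9.80 and 10.26 in CAST, 6.55, 7.20 and 7.80 in PWK and 9.05, 9.39 and 9.79 in WSB livers, so no PWK array reached the lowest array of either other strain. It was 5.96-fold higher in CAST than in PWK (2.58 ± 0.15, adjusted p = 6.92e-29) and 4.64-fold lower in PWK than in WSB (-2.21 ± 0.14, adjusted p = 1.21e-25). Ces2e had 10.57, 10.85 and 10.95 in CAST, 8.75, 9.20 and 9.49 in PWK and 10.07, 10.25 and 10.55 in WSB livers. Here the CAST and WSB ranges did not overlap either. Ces2e was 3.15-fold higher in CAST than in PWK (1.65 ± 0.07, adjusted p = 5.09e-40) and higher in CAST than in WSB by 0.57 ± 0.06 (adjusted p = 4.59e-14).

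The Ces1 genes of liver ordered the strains in different ways. Ces1e was lowest in CAST, with 9.24, 9.52 and 9.64 in CAST, 9.92, 10.49 and 10.93 in PWK and 10.71, 10.88 and 11.09 in WSB livers. Its difference was -0.98 ± 0.06 for CAST minus PWK (adjusted p = 4.01e-26) and -1.40 ± 0.06 for CAST minus WSB (adjusted p = 3.78e-40). Ces1g was lowest in PWK, where arrays spread from 9.80 to 11.25 around a median of 10.94, against 11.86, 12.17 and 12.34 in CAST livers. The difference was 1.40 ± 0.09 for CAST minus PWK (adjusted p = 7.29e-25) and -1.03 ± 0.09 for PWK minus WSB (adjusted p = 3.33e-18). Ces1d was lower in CAST than in PWK by 0.27 ± 0.06 and than in WSB by 0.67 ± 0.05. Ces1f was lower in CAST than in PWK by 0.67 ± 0.06 and than in WSB by 0.29 ± 0.06. Ces1c and Ces3a differed by at most 0.52 ± 0.04 (Ces1c, PWK minus WSB). Ces3b was the member with least difference between inbred livers. Its PWK minus WSB value of -0.21 ± 0.08 passed (adjusted p = 0.0297) and was lost when any of 7 single arrays was left out, with values from -0.15.

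**Figure D2:**
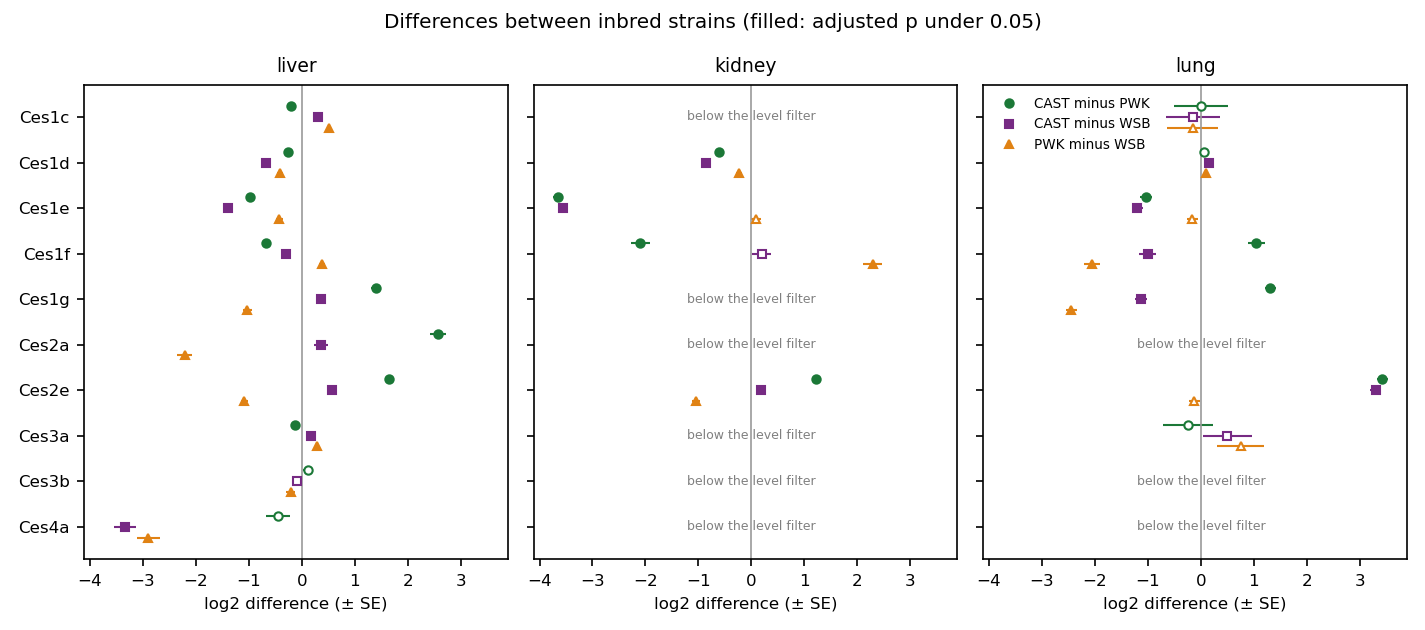
Log2 differences (± SE) between inbred strains for the 10 genes in liver, kidney and lung; filled symbols passed adjusted p under 0.05, and genes below the level filter of a tissue have no value. Ces4a in liver, Ces1e in kidney and Ces2e in lung each reach a difference of more than 3.

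In kidney Ces1e was low in CAST. Of the 12 contrasts of the 4 tested members, 10 were called, 3 higher and 7 lower, with 60.2% of such contrasts called over all genes. CAST kidneys had 5.06, 5.72 and 6.18 for Ces1e (n = 11), PWK kidneys 8.94, 9.35 and 9.73 (n = 12) and WSB kidneys 8.60, 9.33 and 9.61 (n = 12). All CAST arrays lay below the level filter of the tissue and below every PWK and WSB array. The difference in signal, given without a fold for that reason, was -3.65 ± 0.10 for CAST minus PWK (adjusted p = 1.23e-54) and -3.55 ± 0.10 for CAST minus WSB (adjusted p = 8.85e-54). PWK and WSB differed by 0.09 ± 0.09 (adjusted p = 0.396).

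Ces1f in kidney was instead high in PWK. PWK kidneys had 8.81, 9.64 and 11.34, against 6.97, 8.04 and 8.50 in CAST and 6.77, 7.77 and 8.47 in WSB kidneys, with no overlap between PWK and either. Ces1f was 4.28-fold lower in CAST than in PWK (-2.10 ± 0.18, adjusted p = 4.51e-18) and 4.89-fold higher in PWK than in WSB (2.29 ± 0.18, adjusted p = 8.74e-21). Ces1g, which stayed below the filter in kidney and has no test there, had the same order, with means of 5.0 ± 0.22 in CAST, 7.21 ± 0.79 in PWK and 4.90 ± 0.26 in WSB kidneys (SD, n = 11, 12 and 12). Ces2e was low in PWK kidney as in liver, with CAST minus PWK at 1.23 ± 0.08 (adjusted p = 4.07e-25) and PWK minus WSB at -1.04 ± 0.08 (adjusted p = 1.33e-21), where the PWK mean of 6.25 was just below the filter. Ces1d was lower in CAST than in PWK by 0.62 ± 0.06 and than in WSB by 0.85 ± 0.06.

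Lung set CAST apart through Ces2e. Of the 21 contrasts of the 7 tested members 12 were called, 6 in each direction, with 61.3% called over all genes. CAST lungs had 8.60, 8.88 and 9.26 for Ces2e (n = 10), PWK lungs 4.93, 5.39 and 6.09 (n = 12) and WSB lungs 5.04, 5.64 and 6.14 (n = 12). Every CAST array stood above all PWK and WSB arrays. The difference in Ces2e signal was 3.43 ± 0.10 for CAST minus PWK (adjusted p = 1.39e-47) and 3.30 ± 0.10 for CAST minus WSB (adjusted p = 3.11e-46). All PWK and WSB arrays lay below the lung filter, which Ces2e passed through the crosses with a CAST parent, so no fold is given. Among inbred strains Ces1f and Ces1g had their lowest lung means in PWK, the strain with their highest kidney means. Ces1g had 7.48, 7.76 and 8.59 in CAST, 6.17, 6.37 and 7.12 in PWK and 8.45, 8.99 and 9.36 in WSB lungs. PWK minus WSB was -2.45 ± 0.10 for Ces1g (adjusted p = 3.71e-38) and -2.05 ± 0.15 for Ces1f (adjusted p = 1.36e-21), whose PWK mean of 5.78 was below the filter. Ces1e was lower in CAST lung than in PWK by 1.04 ± 0.11 and than in WSB by 1.20 ± 0.11, with a CAST mean of 5.77, also below it. Ces1c and Ces3a, which followed the hepatocyte sum, had no call between inbred lungs.

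Strain differences depended on the tissue for 7 of the 10 members in limma's F-test of strain by tissue, a test that 84.8% of the 13774 genes passed. The smallest adjusted p-values were 6.74e-90 for Ces2e, 1.68e-85 for Ces1e, 4.68e-81 for Ces1g and 1.36e-62 for Ces4a. Ces1c (adjusted p = 0.315), Ces3a (0.676) and Ces3b (0.271) did not pass. The animal was a random block in this fit, because tissues share animals, and the correlation between tissues of an animal was 0.0406.

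The F1 livers were above both inbred parents for Ces4a wherever WSB was 1 of the parents and the cross was read as a pair. That Ces4a lies above both parents was known when the genes were chosen, so its p-values describe these arrays. In the F1 of PWK and WSB, PWKxWSB livers had 9.10, 10 and 10.74 (n = 12) and WSBxPWK livers 9.32, 10.12 and 10.86 (n = 12), against 5.19, 5.67 and 6.47 in PWK and 7.33, 8.22 and 10.54 in WSB livers. All arrays of both F1 crosses stood above every PWK array and above the WSB median, and 2 of each cross stood above the highest WSB array. The F1 mean was 2.76-fold above the nearer parent, WSB (1.46 ± 0.17, adjusted p = 7.01e-12), and 1.34 to 1.63 above it when single arrays were left out. On a scale where 1 is the level of the higher parent and -1 that of the lower, the F1 position was 2.01.

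In the F1 of CAST and WSB the directions of the cross differed for Ces4a. CASTxWSB livers had 9.23, 9.86 and 10.47 (n = 12) and WSBxCAST livers 7.26, 8.28 and 9.79 (n = 11), against 4.71, 5.24 and 5.70 in CAST and 7.33, 8.22 and 10.54 in WSB livers. All 12 CASTxWSB arrays were above the WSB median and none was above the highest WSB array, while 6 of 11 WSBxCAST arrays were above the WSB median. Pooled, the F1 mean was 1.43-fold above WSB (0.51 ± 0.17, adjusted p = 0.0105). Taken alone, CASTxWSB was 2.51-fold above WSB (1.33 ± 0.20, adjusted p = 3.51e-08) and WSBxCAST differed from WSB by -0.30 ± 0.20 (adjusted p = 0.231), in a comparison chosen after seeing the data. The pooled call was lost without 1 WSB liver, replicate 8, the highest of that strain (0.38, adjusted p = 0.0565), and with runs of consecutive animal numbers as a random block (0.54, adjusted p = 0.0802). For the F1 of PWK and WSB the value with that block was 1.38 (adjusted p = 3.01e-06). Without the liver array that went against its sex label it was 1.48.

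**Figure D3:**
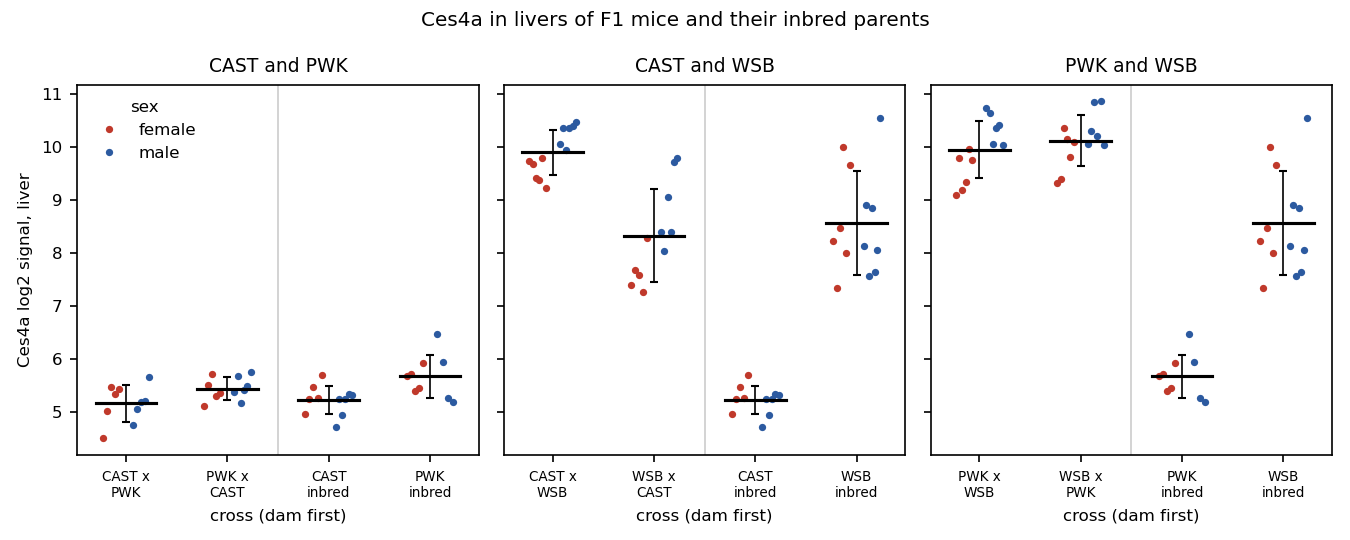
Ces4a log2 signal in liver for each pair of strains, with F1 crosses left and inbred parents right; each point is 1 animal coloured by sex, lines and bars are mean and SD. PWKxWSB and WSBxPWK means were 9.95 and 10.12 against 8.57 in WSB, and the WSBxCAST mean was 8.32, within the range of the WSB arrays.

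The Ces4a excess was also computed in each sex. In females the F1 of PWK and WSB was above the nearer parent by 1.08 ± 0.25 (adjusted p = 4.57e-04), and the F1 of CAST and WSB differed from it by -0.03 ± 0.25 (adjusted p = 0.952). In males the values were 1.85 ± 0.23 (adjusted p = 2.67e-10) and 1.05 ± 0.23 (adjusted p = 1.42e-04). The difference between the sexes in these excesses was not tested, and the test of sex by cross for Ces4a gave an adjusted p of 0.0740. In the F1 of CAST and PWK, Ces4a had 4.50, 5.20 and 5.65 in CASTxPWK and 5.12, 5.41 and 5.75 in PWKxCAST livers, and the F1 mean lay between the parents (0.07 ± 0.18 from the nearer parent, adjusted p = 0.807), with the means of all 4 groups below the liver filter.

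Ces3b was the member above both parents in all 3 pairs of liver. Its CASTxWSB livers had 12.21, 12.37 and 12.55 and its WSBxCAST livers 12.29, 12.39 and 12.62, against 11.28, 11.79 and 12.06 in CAST and 10.97, 11.82 and 12.40 in WSB livers. Every array of both F1 crosses was above the highest CAST array, and 6 of 12 CASTxWSB and 5 of 11 WSBxCAST arrays were above the highest WSB array. The F1 exceeded the nearer parent by 0.58 ± 0.07 (adjusted p = 5.14e-12) in the pair of CAST and WSB, by 0.34 ± 0.07 (adjusted p = 7.08e-05) in CAST and PWK, and by 0.29 ± 0.07 (adjusted p = 2.23e-04) in PWK and WSB. PWKxWSB taken alone did not pass against WSB (0.14 ± 0.08, adjusted p = 0.137).

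In the F1 of CAST and WSB 3 other members exceeded both parents in liver, by 0.33 ± 0.05 for Ces1f (adjusted p = 2.22e-08), 0.32 ± 0.12 for Ces2a (adjusted p = 0.0274) and 0.14 ± 0.03 for Ces3a (adjusted p = 2.67e-04). For Ces2a, CASTxWSB alone was above CAST, its nearer parent, by 0.48 ± 0.14 (adjusted p = 0.00355) and WSBxCAST by 0.15 ± 0.14 (adjusted p = 0.415). Its pooled call was lost without any 1 of 4 arrays, CAST replicates 1, 9 and 10 and WSBxCAST replicate 4, with values from 0.23, and with runs as a block (0.27, adjusted p = 0.193). In all, 8 of the 30 values in liver were above both parents, over 5 genes, with 1.74% of such values called over all genes, and 0 were below both, with 2.25% called. Of these 8, 2 are Ces4a values, which were known when the genes were chosen, and without Ces4a the count was 6 of 27, over 4 genes. In kidney 2 of 12 were above both (3.63% over all genes) and 0 below (4.63%), and in lung 1 of 21 was above both (2.65%) and 0 below (2.81%). At an unadjusted p under 0.05 the limma counts of members below both parents were 0 in liver, 0 in kidney and 0 in lung.

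**Figure D4:**
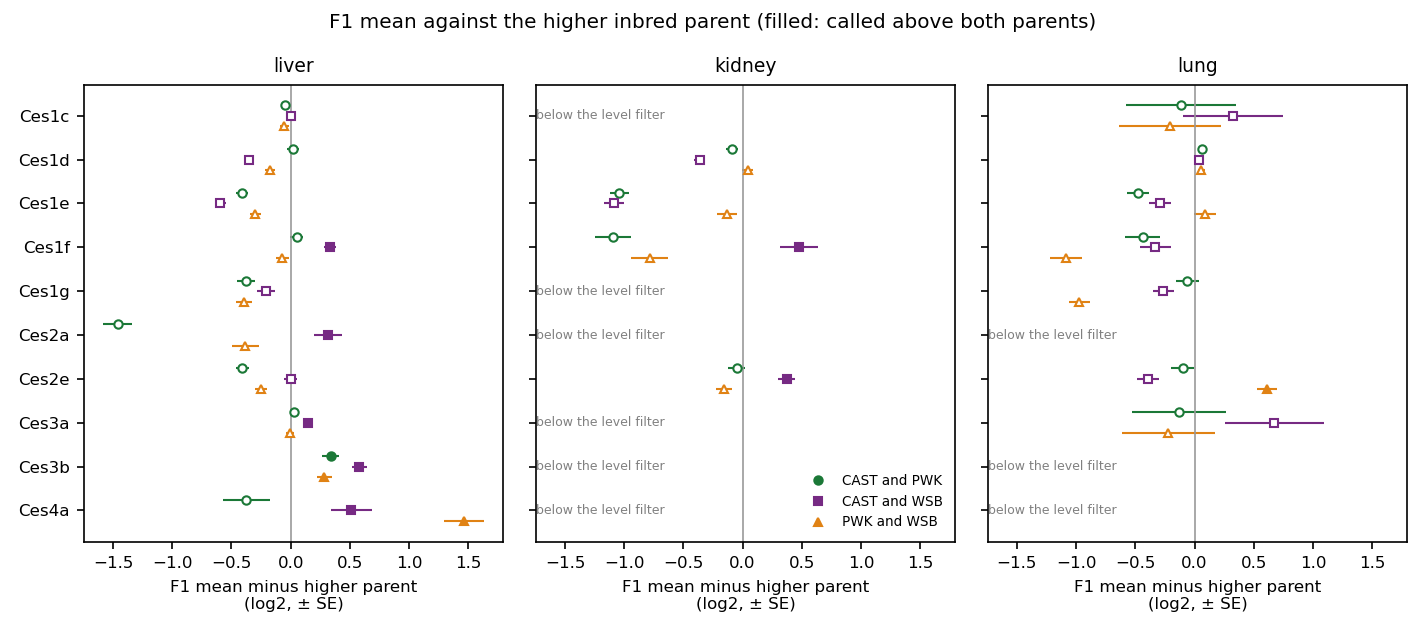
Difference of the F1 mean from the higher inbred parent (log2, ± SE) for each gene and pair of strains in liver, kidney and lung; filled symbols were called above both parents. Ces4a in the pair of PWK and WSB stands at 1.46, and the other filled symbols lie between 0.14 and 0.61.

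The kidney and lung cases involved Ces1f and Ces2e. In kidney the F1 of CAST and WSB had Ces2e signals of 7.32, 7.87 and 8.05 in CASTxWSB and 7.56, 7.93 and 8.16 in WSBxCAST, against 7.18, 7.46 and 7.81 in CAST and 6.88, 7.33 and 7.60 in WSB. The ranges overlapped, and the F1 exceeded CAST, the nearer parent, by 0.37 ± 0.07 (adjusted p = 5.85e-06). Ces1f exceeded it by 0.48 ± 0.16 (adjusted p = 0.00883), by 0.65 ± 0.19 in WSBxCAST alone (adjusted p = 0.00252) and by 0.30 ± 0.19 in CASTxWSB alone (adjusted p = 0.166). The pooled Ces1f call was lost with runs as a block (0.50, adjusted p = 0.0559). In lung the F1 of PWK and WSB had Ces2e signals of 5.75, 6.07 and 6.55 in PWKxWSB and 6.09, 6.24 and 6.68 in WSBxPWK, against 4.93, 5.39 and 6.09 in PWK and 5.04, 5.64 and 6.14 in WSB. The F1 exceeded WSB by 0.61 ± 0.09 (adjusted p = 9.78e-09), but the means of 6.09 in PWKxWSB, 6.32 in WSBxPWK, 5.45 in PWK and 5.60 in WSB were all below the lung filter, which Ces2e passed through the crosses with a CAST parent. This was the 1 lung value called above both parents.

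**Figure D5:**
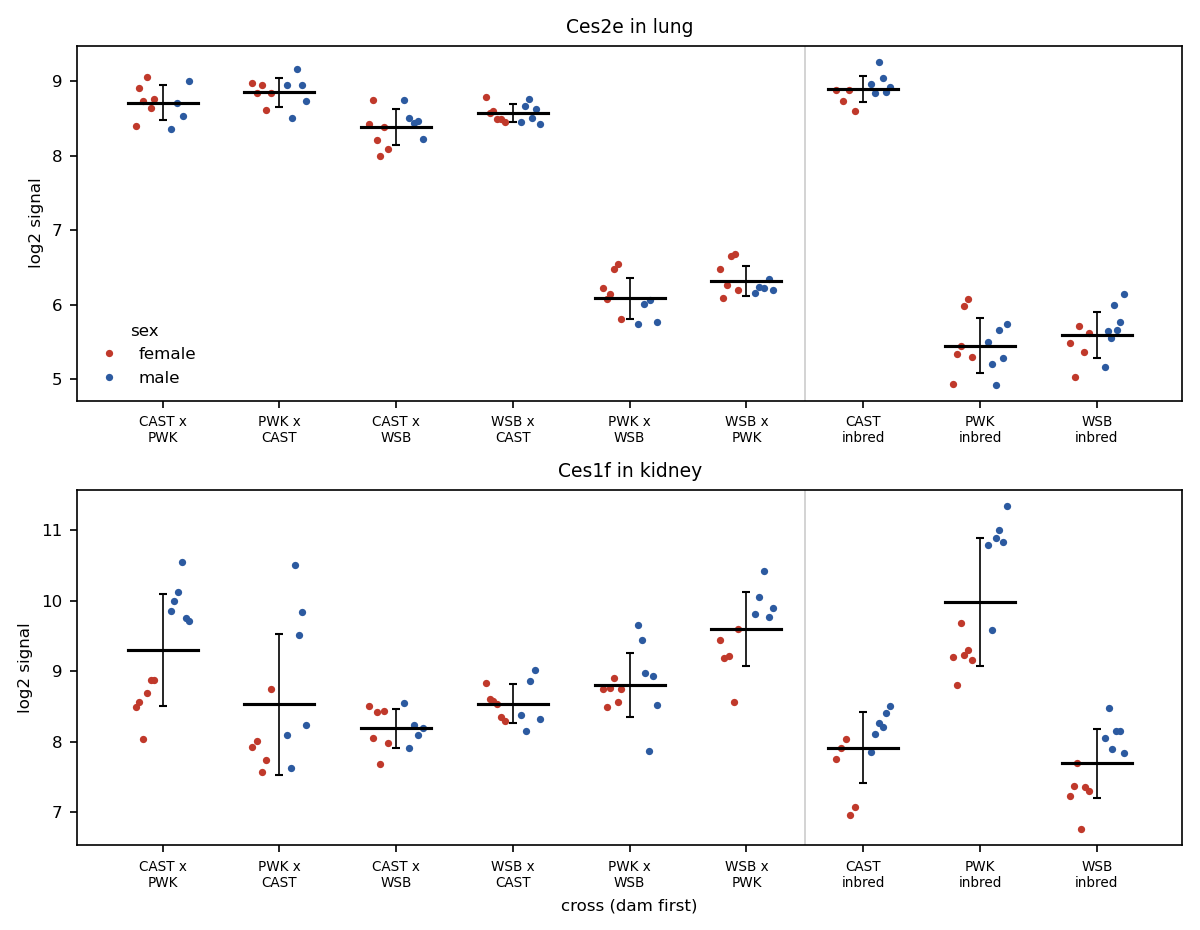
Log2 signals of Ces2e in lung and Ces1f in kidney by cross, F1 crosses left and inbred strains right; points are animals coloured by sex, lines and bars are mean and SD. Ces2e followed the presence of a CAST parent, with means of 8.39 to 8.85 in F1 lungs with 1 and 6.09 and 6.32 in those without, and most male Ces1f kidney points of PWK and CASTxPWK lie above the female ones.

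Many F1 values were above the mid-parent value. In liver 21 of 30 values, or 19 of 27 without Ces4a, were called above the mean of the parents' log2 signals and 0 below it (9.96% above over all genes), in kidney 9 of 12 above and 0 below (19.4%) and in lung 11 of 21 above and 0 below (15.9%). At an unadjusted p under 0.05 in limma, 1 value in liver, 0 in kidney and 0 in lung were below. The lung count includes Ces3a in the F1 of CAST and WSB (0.92), a gene that followed the hepatocyte sum in lung. That call was lost without CAST replicate 1 or 3, or without CASTxWSB replicate 3. For Ces2e in lung the F1 of CAST and PWK was 1.61 ± 0.07 above mid-parent, at position 0.94, and the F1 of CAST and WSB 1.26 ± 0.07 above it, at position 0.76, so F1 lungs with 1 CAST parent lay nearer to CAST than to the other parent. For Ces1e in kidney the F1 of CAST and PWK had 7.88, 8.37 and 8.84 in CASTxPWK and 7.98, 8.16 and 8.62 in PWKxCAST, against 5.06, 5.72 and 6.18 in CAST and 8.94, 9.35 and 9.73 in PWK. The positions were 0.43 and, for CAST and WSB, 0.39. Against the mean of the parents' linear signals the same Ces1e values turned to -0.15 and -0.20, so the side of mid-parent depends on the scale. On that scale 5 of the values called above mid-parent reversed and 36 did not. The 5 also include Ces1f in kidney and Ces1g in lung, both for PWK and WSB, and Ces1e in liver for CAST and WSB. Ces2a in the F1 of CAST and PWK lay near the middle, at position -0.13 (-0.17 from mid-parent, adjusted p = 0.241), with 7.84, 8.33 and 9.25 in CASTxPWK and 7.72, 8.16 and 8.85 in PWKxCAST livers.

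Reciprocal F1 crosses share their autosomal genotype and differ in which strain was the dam and which the sire. What underlies a difference between them was not tested. In liver 5 of 30 values were called (5.39% over all genes), in kidney 4 of 12 (2.15%) and in lung 1 of 21 (15.9%). Ces4a was higher in CASTxWSB than in WSBxCAST by 1.63 ± 0.21 (adjusted p = 8.51e-09), in females by 1.90 ± 0.30 (adjusted p = 1.00e-04) and in males by 1.36 ± 0.28 (adjusted p = 9.51e-04). Of the 11 WSBxCAST livers, 9 of the first run of animal numbers had 7.26 to 8.28 in females and 8.04 to 9.05 in males, and the other 2, both males of the second run, had 9.71 and 9.79. The other liver calls were -0.26 ± 0.06 for Ces1f in CASTxWSB minus WSBxCAST, -0.35 ± 0.06 for Ces1f and -0.29 ± 0.08 for Ces3b in PWKxWSB minus WSBxPWK, and 0.22 ± 0.06 for Ces2e in CASTxPWK minus PWKxCAST. In kidney Ces1f differed by 0.81 ± 0.18 in CASTxPWK minus PWKxCAST (adjusted p = 0.00401) and by -0.79 ± 0.19 in PWKxWSB minus WSBxPWK (adjusted p = 0.0120), Ces1e by -0.39 ± 0.10 in CASTxWSB minus WSBxCAST and Ces1d by -0.23 ± 0.06 in PWKxWSB minus WSBxPWK. In lung Ces1g differed by 0.52 ± 0.11 in CASTxPWK minus PWKxCAST. Each run of animal numbers holds 1 cross. When runs were a random block, 1 liver value was called (Ces4a), with 0 in kidney and 0 in lung.

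The sex differences called over all crosses ran one way in liver and kidney. Females had less than males for 7 of 10 members in liver (5.0% of genes lower in females over all genes) and 3 of 4 in kidney (6.03%). The largest liver value was that of Ces4a, -0.36 ± 0.10 for females minus males (limma, adjusted p = 0.00558). It was followed by -0.23 ± 0.04 for Ces3b and -0.22 ± 0.03 for Ces1f. The Ces4a means of females and males were 8.613 and 8.527 in WSB, 5.325 and 5.132 in CAST, and 5.629 and 5.716 in PWK. They were 9.534 and 10.26 in CASTxWSB, 7.639 and 8.894 in WSBxCAST, 9.521 and 10.37 in PWKxWSB, and 9.855 and 10.39 in WSBxPWK. In CASTxPWK they were 5.149 and 5.169, and in PWKxCAST 5.395 and 5.474. Ces1c, Ces1g and Ces2a did not pass in liver. In kidney the values were -0.71 ± 0.09 for Ces1f (adjusted p = 3.59e-10), -0.31 ± 0.05 for Ces1e and -0.15 ± 0.03 for Ces1d. In lung 0 of 7 members were called (3.52% over all genes), and 0 had an unadjusted p under 0.05 in limma.

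The sex difference itself varied between crosses for 2 of 4 members in kidney (4.52% over all genes), 4 of 10 in liver (8.13%) and 0 of 7 in lung (23.3%, and 1 at an unadjusted p under 0.05 in limma). In kidney Ces1f had the smaller adjusted p of the 2, 0.00508. Its PWK kidneys had 8.81, 9.21 and 9.68 in females, against 9.59, 10.86 and 11.34 in males, and its CASTxPWK kidneys 8.04, 8.63 and 8.88 in females, against 9.72, 9.92 and 10.55 in males. In CASTxWSB the means were 8.18 ± 0.33 in females and 8.20 ± 0.23 in males (SD, n = 6 and 5). Ces1g in kidney, below the filter and without a test, had 5.43 ± 0.23 in females and 6.82 ± 0.12 in males of CASTxPWK (SD, n = 6 each), and 4.99 ± 0.26 and 5.11 ± 0.13 in females and males of CASTxWSB. With runs as a block 1 member was called in kidney and 1 in liver.

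Other carboxylesterases of the array were read from a list of 10 genes with 6 on the array. In liver 3 were tested, where 54.1% of inbred contrasts were called in either direction over all genes. For CAST minus PWK 3 were higher and 0 lower, with a median of 1.69 beside -0.0083 for all genes. The leading members were Ces2b at 2.88 and Ces1b at 1.69. For CAST minus WSB 3 were higher and 0 lower, with a median of 2.74 beside 0.036, and Ces2b at 4.39. For PWK minus WSB 2 were higher and 1 lower, with a median of 1.06 and Ces2b at 1.51. In lung the CAST minus PWK differences were 3.33 for Ces2b and 2.06 for Ces2g, and those of CAST minus WSB were 2.62 and 1.92. In kidney Ces2b differed by 2.63 for CAST minus PWK and by 3.08 for CAST minus WSB. Ces2g, the other gene tested there, was lower in CAST than in PWK (-0.19) and higher in CAST than in WSB (0.50).

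Genes of related pathways moved in both directions between inbred livers. Of 17 genes of triglyceride and lipoprotein handling 16 were tested, of which 4 were higher and 7 lower in CAST minus PWK, 7 and 6 in CAST minus WSB, and 6 and 5 in PWK minus WSB. Their medians were -0.025, 0.029 and 0.065 beside -0.0083, 0.036 and 0.042 for all genes. The leading members were Tm6sf2, which serves lipoprotein secretion, at 0.56 for CAST minus PWK, and the lipid droplet protein Pnpla3 at 2.15 for PWK minus WSB. A further list of 15 genes held other esterases and hydrolases and also the receptors Kdelr1, Kdelr2 and Kdelr3, which are not enzymes. Of its genes 12 were tested, with 2 higher and 7 lower, 4 and 6, and 4 and 5 in the same contrasts. Their medians were -0.095, -0.041 and -0.053, and the lactonase Pon2 was lower in CAST than in PWK by 1.96 and than in WSB by 2.37. Of 12 nuclear receptors and related factors 11 were tested, with 3 higher and 2 lower, 7 and 0, and 4 and 2. Their medians were 0.088, 0.16 and 0.041, and Nr0b2, a bile acid target, stood at 1.09 for CAST minus WSB. These counts stand beside the 54.1% of all such contrasts that were called in liver.

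Over the 9 cross means of the tissue where each member was highest, the genes most like it were found by Pearson correlation, as a description with no test. For Ces4a in liver they were Abca8a (r = 0.988), a lipid transporter, and Fam3c (r = 0.977). For Ces2a they were Slc44a3 (0.979) and Miga1 (0.977), for Ces2e Apon (0.988) and Rpap3 (0.985), and for Ces3b Gba2 (0.979) and Timd2 (0.928). For the Ces1 genes of liver they were Tnfsf10 and Stk38 for Ces1c, Gmfg and Higd2a for Ces1e, Slc22a30 and Jun for Ces1f, and Ifitm2 and Ppp1r2 for Ces1g, with r between 0.914 and 0.992. Gm16551 and C1s2 were most like Ces3a in liver, and Gja5 and Tppp most like Ces1d in lung.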

How the data were processed

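RNA of 4 tissues was measured on 386 arrays in 35556 transcript clusters. The authors deposited log2 signals, made with RMA in Affymetrix Expression Console per the submitters' processing notes, and no source used here states whether the tissues were normalised jointly. Background correction and summary over probes had been done before deposit, and array medians ran from 5.89 to 6.36. The number of arrays limits the precision. Gene symbols came from the platform annotation, updated through a gene table: 21218 clusters had 1 symbol, 1881 several and 12457 none. The cluster with the highest mean stood for each of 18820 genes.

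Means of the 18 groups by cross and sex were fitted per tissue in limma 3.58.1 (R 4.3.3), with trended empirical Bayes moderation and Benjamini-Hochberg adjustment per tissue and contrast, on genes at or above the 40th percentile of the tissue. Contrasts compared inbred strains, each F1 pair with its mid-parent value and with both parents, reciprocal crosses, and females with males, with equal weight for each cross and sex. F1 above both parents required a call against each parent, and F1 positions were computed where the parents differed by at least 0.5. Tissues and strain by tissue were fitted over all arrays, and strain by tissue had the animal as a random block. Replicate numbers do not mark the same animal in different crosses. Counts over tissues used 67 animals with all 4 tissues and others with fewer. The fit was tested on simulated data.

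The members were the 10 genes of the description. Named beside them were, of each pathway list, the called genes with the smallest p-values, and for each member the genes with the highest correlation over cross means. Members and lists were chosen with earlier results of these data known. Close paralogs may share probes. Alternatives were other filters, models, weights, normalisations and blocks, and each array left out in turn. Runs of consecutive animal numbers within a cross, 27 in all and ending at gaps of more than 2, are not a labelled batch. Tables and figures were made with Python 3.11.15.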

Additional observations from a re-analysis of the deposited data

Results flagged for a closer look

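In lung, CAST replicate 2 stood apart from the other CAST arrays for 2 genes. Its Ces1c signal was 10.377, with the nearest array at 7.594, and its Ces3a signal was 9.586, with the nearest at 7.269. Of 52 group values examined in this way 2 stood apart, where chance gives about 5 percent. Groups of more than 10 arrays were not examined, so arrays that stand apart in them would be missed. One such group was PWK lung (n = 12), where Ces1c had a median of 6.055 and a highest array of 11.34.

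Differences between the inbred strains were unequal between tissues in limma's F-test for 7 members. The adjusted p was 1.59e-09 for Ces1d, 1.68e-85 for Ces1e, 4.54e-50 for Ces1f, 4.68e-81 for Ces1g, 4.03e-47 for Ces2a, 6.74e-90 for Ces2e and 1.36e-62 for Ces4a. For Ces2a and Ces4a most tissues lay below the level filter, so a strain difference in liver is set there against signals too low to test.

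The sex difference varied between crosses for Ces1f (adjusted p = 0.00508 in limma) and Ces2e (0.0404) in kidney, where 4.52% of all genes tested passed. For Ces2e the means were 7.33 in females and 7.63 in males of CAST, and 6.41 in females and 6.09 in males of PWK. In liver the adjusted p was 0.0113 for Ces1e, 0.0165 for Ces1f, 0.00346 for Ces1g and 0.00993 for Ces2e. There 8.13% of all genes tested passed. Ces1g had 10.35 in females and 11.11 in males of PWK, and 11.87 in females and 11.64 in males of WSB.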

How the results depend on the processing

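When runs of animal numbers entered as a random block, 96 of 119 called values of the members kept their direction and call and 23 lost the call. Reciprocal calls then numbered 0 in kidney (4 without the block), 1 in liver (5) and 0 in lung (1), calls above both parents in kidney 1 (2), and sex-by-cross calls 1 in kidney (2) and 1 in liver (4). Array weights gave 10 reciprocal calls in liver, and no level filter gave 1 sex-by-cross call in kidney. The 60th percentile filter, which leaves fewer genes tested, gave in lung 2 inbred calls (12 at the 40th), 3 mid-parent calls (11), 0 reciprocal calls and 0 calls above both parents, and in kidney 1 call above both parents. Ces4a in the F1 of CAST and WSB, 0.51 above the nearer parent, was 0.54 with runs as a block (adjusted p = 0.0802), -0.027 in females alone and -0.30 in WSBxCAST alone, and 0.38 to 0.68 when single arrays were left out. Calls above both parents in lung numbered 1 to 2 when single arrays were left out, 2 without CAST replicate 2 or 8. Other calls lost without single arrays were Ces2e in kidney, CAST minus WSB (0.18, lowest 0.14, 12 arrays), Ces1d in kidney, PWKxWSB minus WSBxPWK (PWKxWSB replicate 7, WSBxPWK replicates 2 and 5), Ces3a in lung above mid-parent for CAST and WSB (CAST replicates 1 and 3, CASTxWSB replicate 3), Ces1d in lung, PWK minus WSB (WSB replicate 11), and in liver Ces1d by sex (11 arrays) and, for several arrays each, Ces1e, Ces1f and Ces3b. Alternatives chosen after seeing the data were the linear mid-parent, the hepatocyte covariate, each sex and each cross alone. Against the linear mid-parent 5 of 41 values reversed: Ces1e in kidney (-0.15 and -0.20), Ces1f in kidney for PWK and WSB (-0.053), Ces1e in liver for CAST and WSB (-0.058) and Ces1g in lung for PWK and WSB (-0.21). The hepatocyte covariate gave 1 sex call in lung. Causes were not tested. With the animal as a replicate block, tissue contrasts gave 10 members higher in liver, 3 in kidney, 2 in lung and 0 in brain, as without it. Each contrast is against the mean of the other tissues, and the shares of such calls over all genes are not given. Strain by tissue gave 7 with and 7 without the block, so the block changed no call count. Averaging clusters of a gene could not differ, since each member has 1. Signals below the level filter limit what can be said of Ces2a, Ces3b and Ces4a outside liver.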
